A study of Mus musculus with 2 samples.

Results

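The core interferon-stimulated genes are 32 genes that cells switch on when they sense interferon, followed here by gene symbol among the 32285 genes of a mouse lung single-cell data set. All 32 were found in both deposited count matrices. Chimeric lungs of C57Bl mice were taken 6 months after the mice had received a single-cell suspension of lung that carried the red reporter tdTomato. Cells of 3 such lungs were pooled and sorted into tdTomato-positive, CD45-negative cells (the donor library) and tdTomato-negative, CD45-negative cells (the recipient library), and the cells of each sort were sequenced as 1 droplet library (10x Genomics). CD45 marks leukocytes, so both libraries are depleted of the blood-derived cells that make much of the interferon in a lung. Both libraries share the transplant, the recipient mice, the tissue digestion and the sort. The strain of the donors, and how the recipients were prepared, are not given in the sources used here, and the 3 mice cannot be told apart in either library. No feature for the reporter itself was used here, so the sort alone separates donor from recipient cells. With 1 library per group there is no replicate and no test between the groups, and every interval below is a 95% interval for counting error only.

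Interferons of type I and type III bind their receptors at the cell surface and activate the kinases JAK1 and TYK2. These phosphorylate STAT2, which acts with IRF9 in the factor ISGF3, and this factor binds interferon-stimulated response elements in the promoters of its target genes. Interferon gamma acts through another receptor, and IRF1 is among its best known targets. In the lung the response restrains respiratory viruses, and some of its genes, such as Ifitm3 and Bst2, are also expressed by vessel cells without a known stimulus.

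The response element carries a repeat of GAAA, which was searched as GAAA, any pair of bases (NN) and GAAA again on both strands of RefSeq promoter windows (GRCm38.p6, 250 bases before to 50 bases after each gene's start). Overlapping matches were counted apart. Of the 32 members, 25 had a window, and 12 of these 25 (48%) held the motif, against 1079 of 27025 genes with a window (3.99%). The 12 were Isg15, Ifit1, Ifit3, Ifit3b, Stat2, Bst2, Ifitm3, Oas1a, Rsad2, Ifih1, Apol9a and Eif2ak2. A match is a description of these letters, and its absence from a window says nothing of the factor. The stretches below are shown as examples, from members whose values are described below in several cell types. Capitals mark the bases covered by a match, each line is written along the strand of the gene, and a match on the opposite strand reads TTTC, NN and TTTC.

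Isg15: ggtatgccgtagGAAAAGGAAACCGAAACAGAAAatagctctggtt
Ifit1: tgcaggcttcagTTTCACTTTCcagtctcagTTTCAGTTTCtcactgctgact
Ifit3: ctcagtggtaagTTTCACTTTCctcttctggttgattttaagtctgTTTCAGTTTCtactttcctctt
Ifit3b: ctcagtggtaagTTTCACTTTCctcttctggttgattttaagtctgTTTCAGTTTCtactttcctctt
Bst2: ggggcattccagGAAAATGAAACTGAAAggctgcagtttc

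The Isg15 stretch lies at chr4:156200863-156200908 on the minus strand and holds 3 overlapping matches, the last of them 56 bases before the gene's start. The Ifit1 stretch lies at chr19:34640773-34640825 on the plus strand, with 2 matches. The Ifit3 (chr19:34583361-34583428) and Ifit3b (chr19:34607757-34607824) stretches, both on the plus strand, have the same sequence. Their promoter windows matched at 201 of 268 aligned bases (75%). Ifit3 and Ifit3b are known as close copies, as are Apol9a and Apol9b, Oas1a and other genes of the Oas1 cluster, and Ifi27l2a and Ifi27l2b. How the counting divided reads between such copies was not tested, so their separate values are uncertain. The Bst2 stretch lies at chr8:71537575-71537614 on the minus strand. Several members are neighbours in the genome. Ifit2, Ifit3, Ifit3b and Ifit1 lie in that order within 99316 bases of chromosome 19, and Rsad2 and Cmpk2 lie 12751 bases apart on chromosome 12. Parp9 and Dtx3l overlap by 682 bases on opposite strands of chromosome 16 (GENCODE M21), and whether the counting used strand is not given in the sources used here.

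In the donor library 37997269 transcripts were counted by their molecular identifiers (UMIs) over 6319 barcodes, with a median of 5433, and in the recipient library 26201315 over 3784 barcodes, with a median of 6056.5. Of these, 816 barcodes occurred in both libraries. The copy with fewer UMIs was the donor one for 736 of them and the recipient one for 80, and it was left out. After a filter on outliers, 4854 donor and 3297 recipient cells with 197063 and 81929 member UMIs were used. Cell types were gated by UMIs of marker genes that are no members. In the gated endothelial types of either library, markers of each type were between 28.9 and 552 UMIs per 10000. In the other typed cells they were at 8.3 or fewer. Alveolar type 1 markers were at 410 in donor and 408 in recipient alveolar type 1 cells, against 13.6 and 8.22 in the other typed cells. Since these markers chose the cells, the contrast describes the gate and does not test it. The gate gave 2544 donor and 420 recipient general capillary cells, 1681 and 663 aerocytes, 110 and 92 venous cells, and these types were compared between the libraries. Of the other types, 62 donor arterial cells passed the minimum of 50 cells, and 69 lymphatic, 187 alveolar type 1, 518 pericyte, 157 myofibroblast, 718 alveolar fibroblast and 144 adventitial fibroblast cells did so in the recipient library. Of the recipient cells kept, 143 of the 187 alveolar type 1, 201 of the 718 alveolar fibroblast and 106 of the 144 adventitial fibroblast cells had such a shared barcode. Leukocyte markers stood at 0.403 UMIs per 10000 or less in every type compared between the libraries.

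General capillary and venous endothelium held the most transcripts of the members, and alveolar type 1 cells the fewest among types with at least 50 cells. The 32 members together made up 82.7 UMIs per 10000 (interval 82.3 to 83.2) in donor and 75.4 (74.3 to 76.4) in recipient general capillary cells, the capillary type that can renew itself. Venous cells held 86.0 (84.2 to 87.9) in the donor and 80.8 (78.8 to 82.8) in the recipient library, and donor arterial cells 67.9 (65.4 to 70.5). Aerocytes, the large capillary cells of gas exchange, held 30.1 (29.8 to 30.3) and 26.2 (25.7 to 26.6). The capillary types thus differed from each other far more than the libraries did. In the recipient library the sum was 41.3 in lymphatic cells, 35.3 in adventitial fibroblasts, 30.3 in myofibroblasts, 28.5 in pericytes, 24.3 in alveolar fibroblasts and 12 in alveolar type 1 cells. Without either copy of a shared barcode it was 14.9 in alveolar type 1 cells, 22.9 in alveolar fibroblasts and 33.9 in adventitial fibroblasts.

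Much of that sum came from Ifitm3, which blocks virus entry at endosomal membranes, and Bst2 (tetherin), which holds budding virions at the cell surface. Ifitm3 stood at 3901 CPM (the usual scaling of a gene's UMIs by all UMIs of the type) in donor and 3944 in recipient general capillary cells, at 4839 and 4829 in venous cells, and at 762 and 609 in aerocytes. Pericytes (2076 CPM), myofibroblasts (2150) and adventitial fibroblasts (2191) of the recipient library held it at similar levels to each other, and recipient alveolar type 1 cells at 55.4. Together the 2 genes took 60.8% and 61.7% of the member UMIs of general capillary cells and 75.6% in recipient pericytes, but 16.2% in recipient alveolar type 1 cells. The other 30 members are therefore summed apart below. Their sum was 32.4 UMIs per 10000 (32.2 to 32.7) in donor and 28.8 (28.2 to 29.5) in recipient general capillary cells, 31.0 and 28.4 in venous cells, and 18.1 and 15.8 in aerocytes. Recipient pericytes held 6.96, myofibroblasts 7.88, alveolar fibroblasts 8.94, alveolar type 1 cells 10.1, adventitial fibroblasts 11.1 and lymphatic cells 14.8. By this sum pericytes, not alveolar type 1 cells, were the lowest type.

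**Figure D1:**
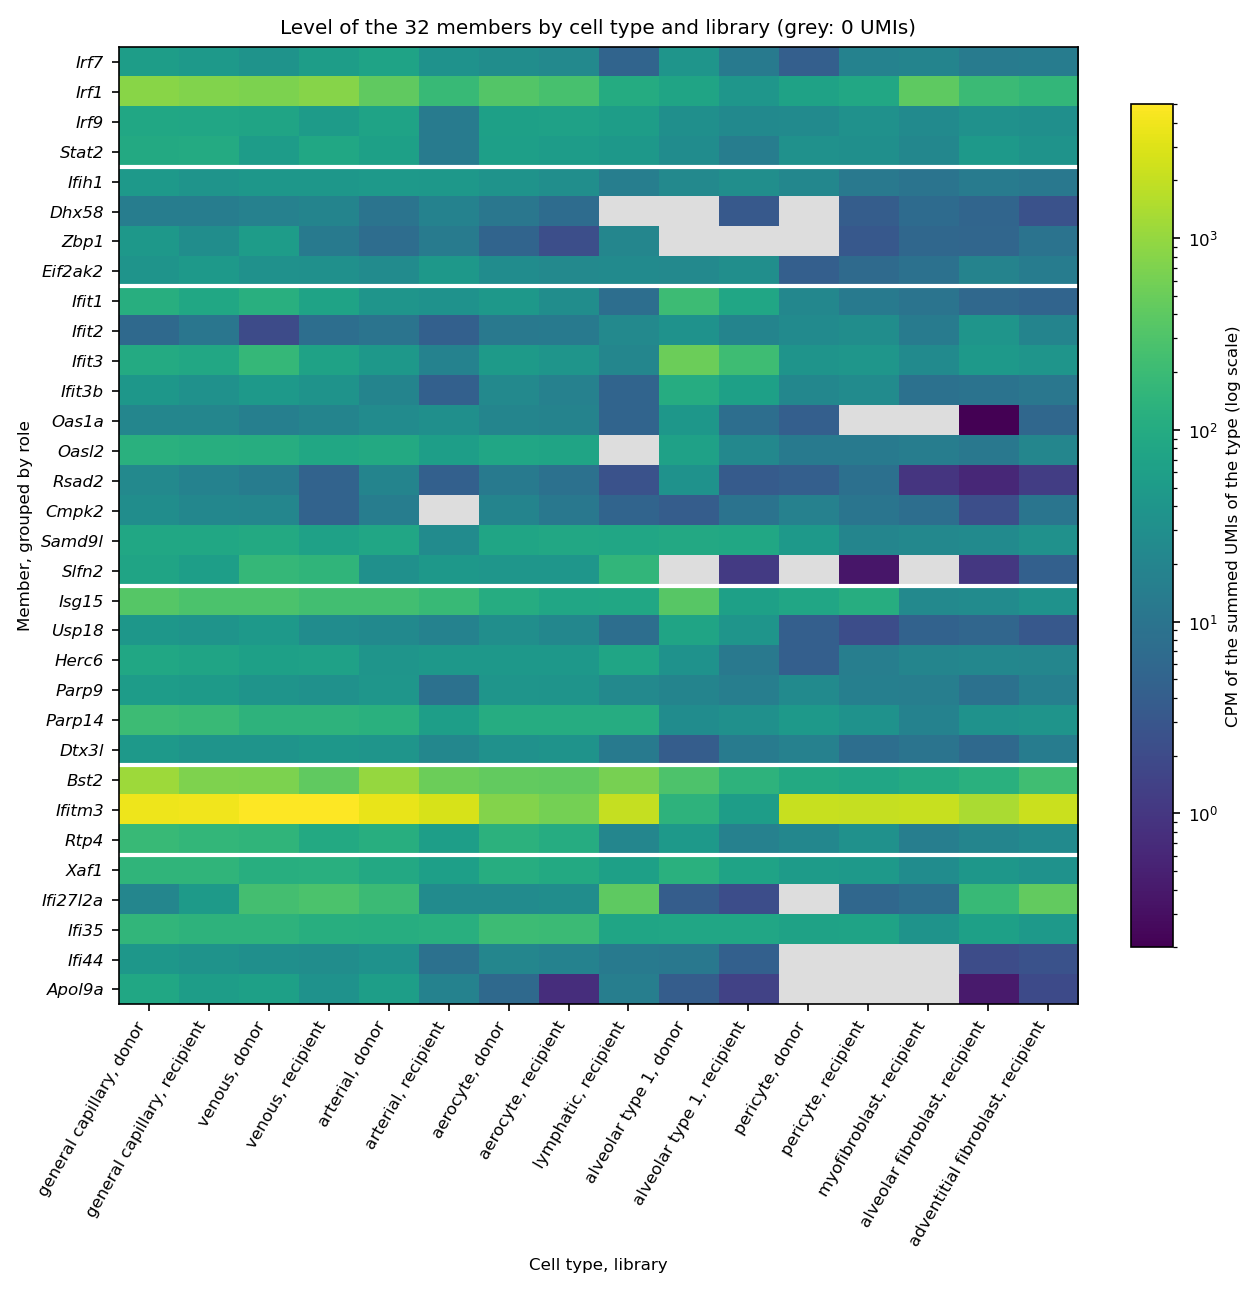
Level of each member (rows, grouped by role) in each cell type and library (columns), as CPM of the summed UMIs of the type on a log colour scale, with members at 0 UMIs in grey. Ifitm3 fills the brightest row, between 609 and 4839 CPM in the compared types, while Ifit3 is brightest in alveolar type 1 cells.

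The 4 members that transmit the signal were highest in blood vessel endothelium. Irf1, a transcription factor of the interferon gamma and early stress responses, stood at 838 CPM in donor and 734 in recipient general capillary cells, at 669 and 804 in venous cells, and at 339 and 267 in aerocytes. It was also at 410 CPM in recipient myofibroblasts, where it made up 52% of the 30-member sum, and at 41.4 in alveolar type 1 cells. The early response list (Fos, Jun, Atf3 and 10 others), genes that tissue digestion also switches on, moved with it in part. That list stood at 282 and 275 UMIs per 10000 in general capillary cells, 167 and 136 in aerocytes and 398 in recipient myofibroblasts, against 109 in recipient alveolar type 1 cells. In recipient alveolar fibroblasts the list was higher than in aerocytes, at 361, but Irf1 was lower, at 197 CPM. The same held for recipient adventitial fibroblasts (271, with Irf1 at 161 CPM) and pericytes (202, with Irf1 at 88.1 CPM). The part of the early response in the Irf1 levels was not tested. Irf7, which amplifies type I interferon production, was at 55.9 and 46.2 CPM in general capillary cells and 28.4 and 23.5 in aerocytes. Of the ISGF3 subunits, Irf9 was at 82.8 and 80.7 CPM and Stat2 at 94.4 and 97.5 in general capillary cells, both with overlapping intervals between the libraries.

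Among sensors and kinases, Zbp1 stood apart by type. This sensor of Z-form nucleic acids, which can trigger necroptosis, stood at 45.0 CPM in donor and 28.2 in recipient general capillary cells and at 54.4 and 12.7 in venous cells. In aerocytes it was at 5.32 and 2.29 CPM, and in recipient alveolar type 1 cells it had 0 UMIs, with an upper bound of 1.36 CPM. The RNA sensor Ifih1 (MDA5) was more even, between 35.9 and 47.3 CPM in the donor endothelial types. Its regulator Dhx58 (LGP2) stayed at 19.1 CPM or less in every type with at least 50 cells, and Eif2ak2 (PKR), the kinase that stops translation on viral RNA, at 48.2 or less.

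The RNA-binding effectors differed in the types that led them. Ifit1, which binds viral RNA that lacks a host cap, was at 116 and 81.9 CPM in general capillary cells and 43.5 and 28.8 in aerocytes, and at 79.1 in recipient alveolar type 1 cells. Ifit3, its partner, was at 213 CPM (196 to 231) in recipient alveolar type 1 cells, against 88.1 in recipient general capillary cells, and the high cells described below held 12.8% of its UMIs there. Ifit3b (63.2 CPM) and Usp18 (38.8 CPM) also had their highest recipient level in alveolar type 1 cells, although for Usp18 the interval overlapped that of general capillary cells. Ifit2 went another way, at 39.0 CPM in recipient alveolar fibroblasts and 28.2 in pericytes, against 10.6 in recipient and 6.45 in donor general capillary cells. Oasl2 (123 and 114 CPM), Oas1a (20.6 and 21.2), Rsad2 or viperin (23.7 and 18.0), Cmpk2 (29.1 and 21.5) and Samd9l (82.2 and 83.4) are given for general capillary cells. Of these, Samd9l, a restriction factor of poxviruses, was nearly as high in recipient alveolar type 1 cells (82.4 CPM) and aerocytes (87.4). Slfn2, which keeps lymphocytes quiescent in mice, was at 169 and 149 CPM in venous cells and 157 in recipient lymphatic cells, against 75.5 and 59.2 in general capillary cells and 1 UMI in recipient pericytes.

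The ubiquitin-like and ADP-ribose members were mainly endothelial, except that Usp18 was as high in recipient alveolar type 1 cells (38.8 CPM). Isg15, the ubiquitin-like protein itself, was at 342 and 284 CPM in general capillary cells, 284 and 236 in venous cells and 107 and 79.6 in aerocytes. Recipient pericytes, with 108 CPM, stood above recipient aerocytes and above the fibroblast types, of which adventitial fibroblasts had 35.3. Usp18, which removes Isg15 and blocks the receptor, was at 43.1 and 38.0 CPM in general capillary cells, and the ligase Herc6 at 81.9 and 72.9. The ADP-ribosyltransferases Parp14 (210 and 189 CPM) and Parp9 (53.6 and 49.0) and the Parp9 partner Dtx3l (45.6 and 37.6) are given for the same cells, with Parp14 at 104 and 105 CPM in aerocytes. Rtp4, a receptor chaperone, was at 183 and 164 CPM in general capillary cells, 132 and 105 in aerocytes and at most 32.9 in the recipient mesenchymal types.

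Of the remaining members, Ifi27l2a was high in adventitial, lymphatic and venous cells and Apol9a in blood vessel cells other than aerocytes. Ifi27l2a, a small mitochondrial protein of the ISG12 family, was at 443 CPM in recipient adventitial fibroblasts, 402 in lymphatic cells and 185 in alveolar fibroblasts. In venous cells it was at 239 and 285 CPM, but at 21.1 in donor and 49.8 in recipient general capillary cells. Apol9a, an apolipoprotein L gene, was at 83.3 and 56.0 CPM in general capillary cells, 62.5 and 34.3 in venous cells and 58.7 in donor arterial cells. In recipient pericytes it had 0 UMIs, with an upper bound of 1.35 CPM. Ifi35 was higher in aerocytes (206 and 198 CPM) than in general capillary cells (157 and 139). Xaf1, a promoter of apoptosis, was at 148 and 150 CPM and Ifi44 at 41.8 and 36.4 in general capillary cells.

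Over all 32 members, general capillary cells held the highest level of 18 members among the 4 donor types with at least 50 cells and of 17 among the 9 recipient types. Venous cells did so for 10 and 6. The highest interval was clear of the next type's for only 5 of the 18 and 4 of the 17, so the order of neighbouring endothelial types is often within counting error. The 5 members with most UMIs were Ifitm3, Bst2, Irf1, Isg15 and Parp14 in general capillary cells of both libraries, whereas Ifi35 and Rtp4 (donor) or Parp14 (recipient) stood beside the first 3 in aerocytes. Venous cells of both libraries had Ifi27l2a in place of Parp14. Recipient alveolar type 1 cells were led by Ifit3, Bst2, Samd9l, Ifi35 and Ifit1. UMIs are not divided by transcript length, so this order is one of counted molecules only.

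**Figure D2:**
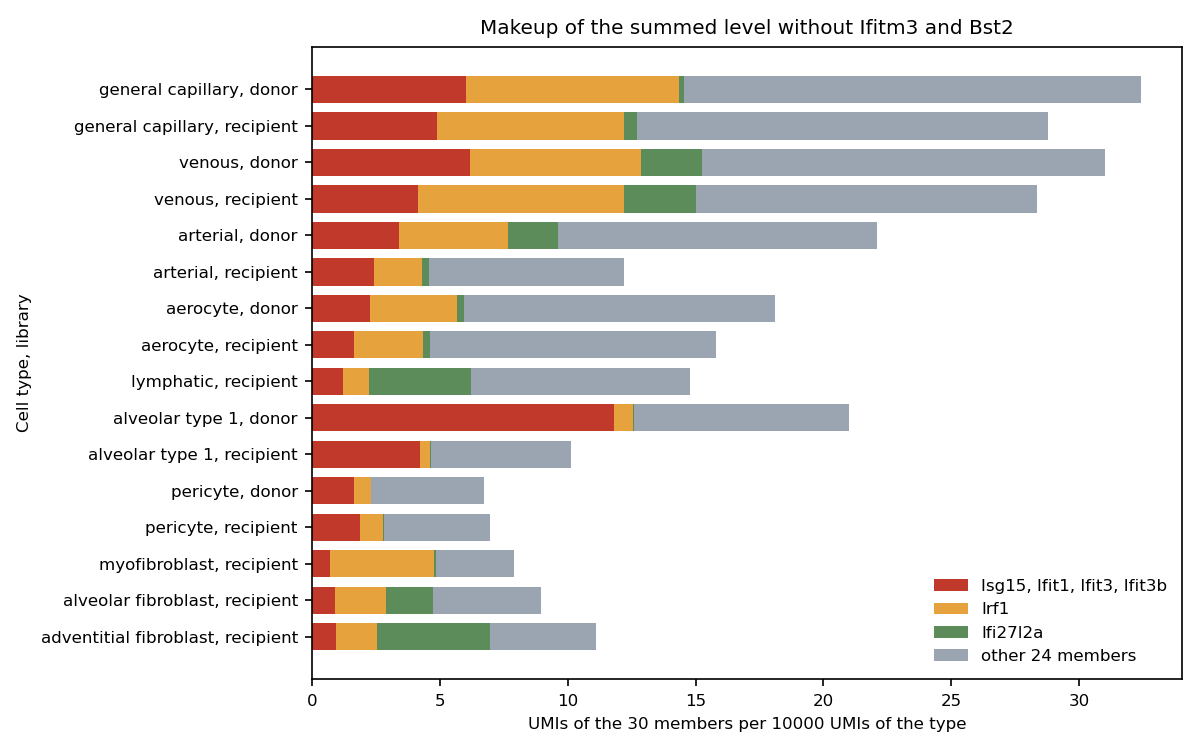
Summed level of the 30 members without Ifitm3 and Bst2 (UMIs per 10000 UMIs of the type, x axis) in each cell type and library (y axis), split by colour into Isg15 with Ifit1, Ifit3 and Ifit3b, Irf1, Ifi27l2a and the other 24. Isg15 and the 3 Ifit genes make up 41.5% in recipient alveolar type 1 cells, Irf1 52% in recipient myofibroblasts and Ifi27l2a 39.8% in recipient adventitial fibroblasts.

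Each type thus reached its sum with other members. In general capillary cells Isg15, Ifit1, Ifit3 and Ifit3b made up 18.5% of the 30-member sum in the donor and 16.9% in the recipient library, and Irf1 25.8% and 25.5%. In recipient alveolar type 1 cells the same 4 genes made up 41.5% and Irf1 4.1%. Ifi27l2a took 39.8% in adventitial fibroblasts, 27.1% in lymphatic cells and 20.7% in alveolar fibroblasts of the recipient library, against 0.651% in donor and 1.73% in recipient general capillary cells.

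The members were then summed per cell to see which cells held them. Each cell with at least 2000 UMIs was thinned to 2000 UMIs, and a cell was called high when at least 10 of these (50 per 10000) came from the 30 members. The median general capillary cell had 5 such UMIs in the donor and 4 in the recipient library, and the 95th percentile was 17 and 15. High cells were 497 of 2512 donor general capillary cells, 19.8% (18.2 to 21.4), and 68 of 417 recipient ones, 16.3% (12.9 to 20.2). The sums had no gap at this limit, since 433 donor and 52 recipient general capillary cells had 8 to 11 UMIs, so high cells are the upper end of a range and not a type. Without thinning the shares were 15.4% and 14.5%, and without Irf1 in the sum 10.6% and 9.83%.

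Venous cells had similar shares, 15.0% (8.8 to 23.1) in the donor and 16.3% (9.42 to 25.5) in the recipient library, and donor arterial cells 12.9% (5.74 to 23.9). Aerocytes had 4.33% (3.4 to 5.42) and 3.35% (2.11 to 5.03). In the recipient library high cells were 2.99% of lymphatic, 2.8% of adventitial fibroblast, 1.7% of alveolar type 1, 1.41% of alveolar fibroblast, 0.637% of myofibroblast and 0.389% of pericyte cells. Intervals of these types overlapped one another. Too shallow to be thinned were 32 of 2544 donor and 3 of 420 recipient general capillary cells, and 11 of 187 recipient alveolar type 1 cells.

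**Figure D3:**
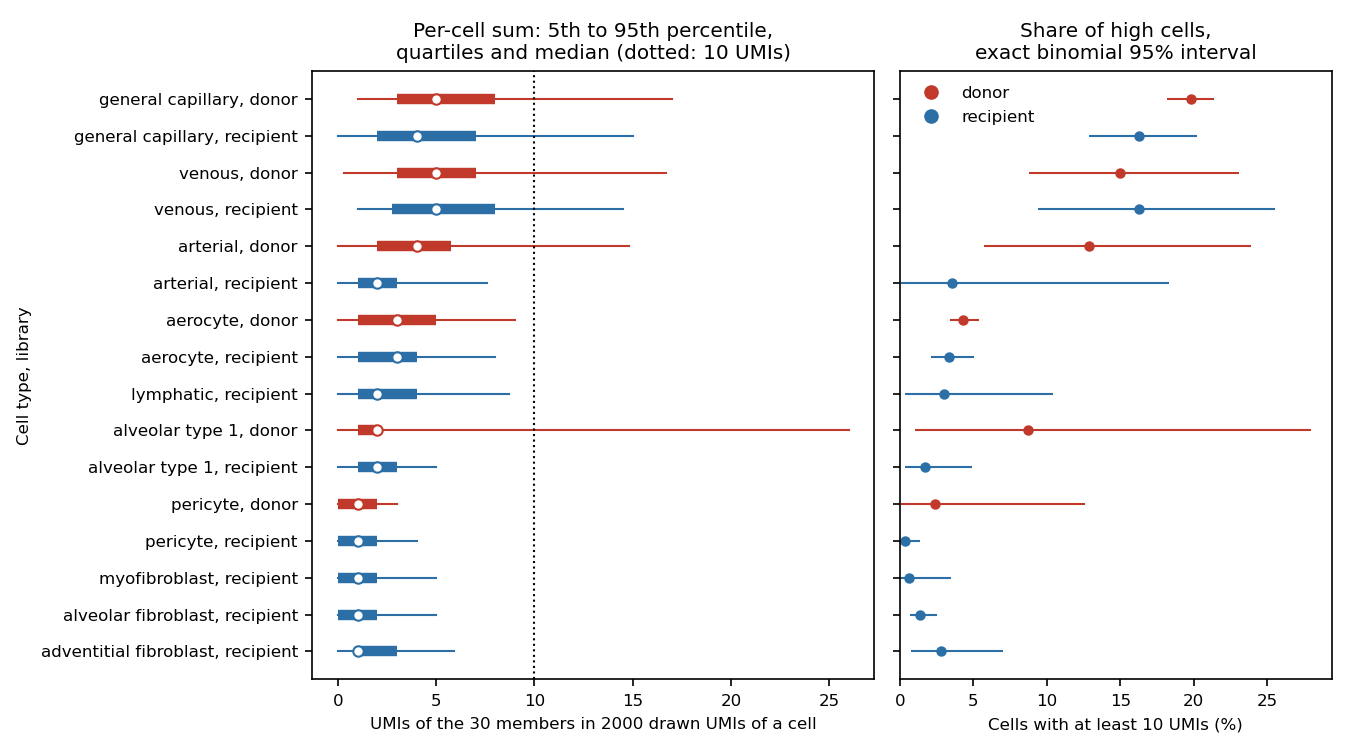
Left, UMIs of the 30 members among 2000 drawn UMIs of a cell (x axis) by cell type and library (y axis), with the 5th to 95th percentile as a thin line, the quartiles as a bar, the median as a circle and the limit of 10 UMIs dotted. Right, the share of cells at or above that limit with its exact binomial interval, which reaches 19.8% in donor and 16.3% in recipient general capillary cells and lies near 4% in aerocytes.

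High general capillary cells held a large part of some members and little of others. To avoid a circle, the high cells for each member were chosen on the remaining members. The set of high cells thus differed by member. In the donor library it held 382 cells for Isg15 and 266 for Irf1, against 497 by the full sum. In the donor library Ifit3b was at 145 CPM in high and 18.1 in other general capillary cells, a ratio of 7.99 (6.76 to 9.48), and in the recipient library at 154 and 9.38, a ratio of 16.4 (9.82 to 28.7). Rsad2 stood at 78.8 and 9.99 CPM in donor cells and 72.3 and 5.16 in recipient cells. Ifit3 (332 and 42.5 CPM in donor cells, 356 and 35.1 in recipient cells) and Ifit1 (364 and 56.8, 318 and 35.4) came next. These 4 members had the highest ratios in both libraries, each at least 6.4.

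Isg15 was at 881 CPM in high and 244 in other donor cells, and 961 and 181 in recipient cells. The other cells thus held it too, but they include some that the full sum calls high. Usp18 had ratios of 3.92 and 5.55 in the donor and recipient libraries, Irf7 of 3.63 and 4.63, and Slfn2 of 3.35 and 4.26. At the low end Irf1 differed by 1.33-fold (1.27 to 1.4) and 1.18-fold (1.02 to 1.35). Ifitm3, which was not used to choose the cells, was at 4639 CPM in high and 3715 in other donor cells and at 5043 and 3735 in recipient cells, and Bst2 had ratios of 1.12 and 1.34. The ISGF3 subunits Stat2 (1.85 and 2.54) and Irf9 (1.56 and 1.92) lay between. Of the 32 members, 25 in the donor and 29 in the recipient library were at least 1.5-fold higher in high cells, where 3.42% and 7.67% of genes that are no members were. Since members choose these cells, that count describes how they occur together and supports nothing further.

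**Figure D4:**
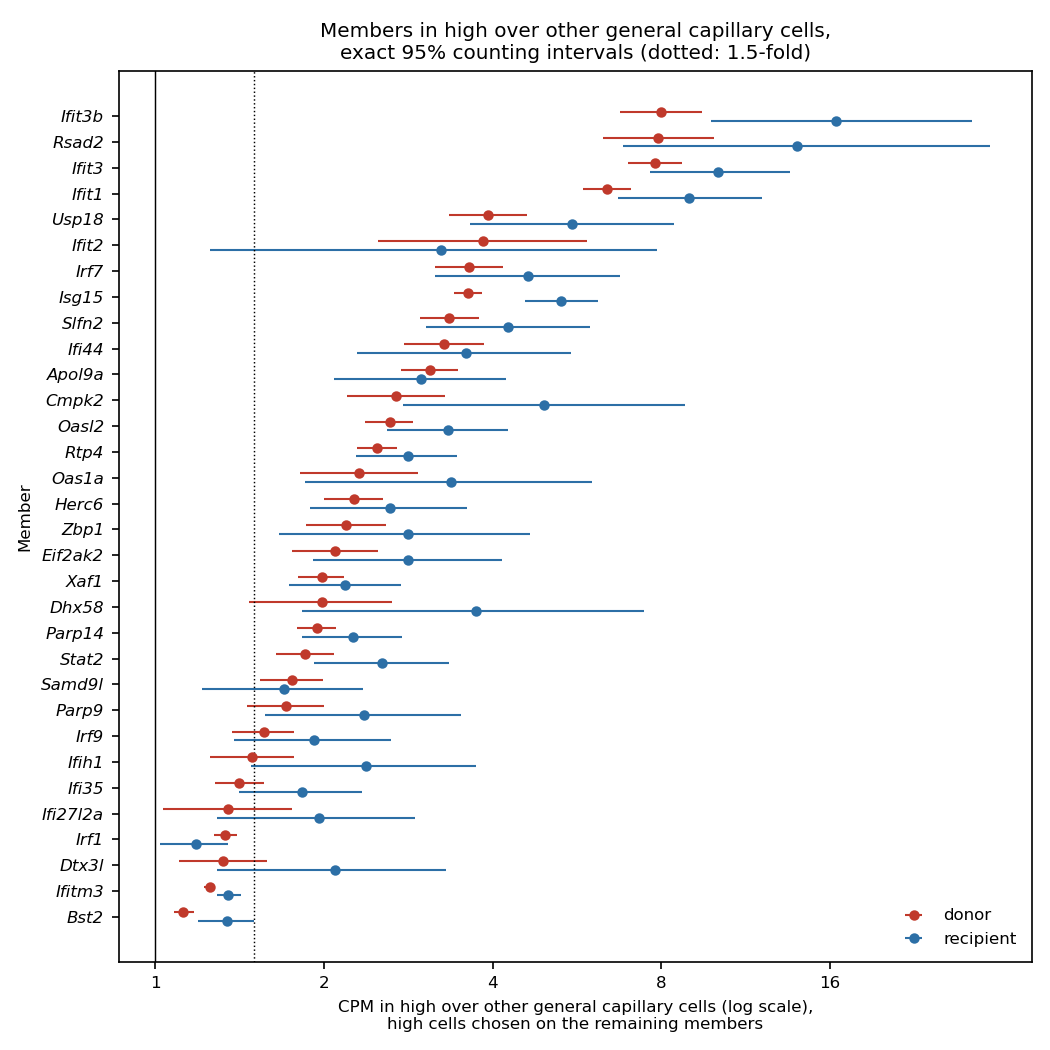
Ratio of CPM in high over other general capillary cells (x axis, log scale) for each member (y axis), with high cells chosen on the remaining members, in the donor (red) and recipient (blue) libraries with exact 95% intervals. Ifit3b, Rsad2, Ifit3 and Ifit1 lie at 6.4 or above in both libraries, while Irf1, Ifitm3 and Bst2 lie below 1.5.

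Aerocytes had fewer high cells, but these held much the same members. In the donor library Rsad2 was at 139 CPM in high and 6.9 in other aerocytes, a ratio of 20.2 (15.1 to 26.9), and 4 of the aerocytes held 50% of its UMIs, with 78 in 1 cell. Ifit1 had a ratio of 11.7 (9.9 to 13.7) in donor and 15.6 (10.9 to 22) in recipient aerocytes, and Ifit3 of 11.1 and 13.5. At least 1.5-fold higher in high aerocytes were 29 of 32 members in the donor and 29 of 30 in the recipient library, against 11.3% and 20.7% of genes that are no members. Early response genes, which tissue digestion also switches on, were higher in high aerocytes of the recipient library. There 5 of 13 were at least 1.5-fold higher (Atf3 at 2.14, Fosb, Egr1, Ier3 and Ier2), with a median log2 ratio of 0.54. In the donor library 1 of 13 was (Egr1, 1.52), which does not exceed the 11.3% of other genes, and the median was 0.07. The part of early response genes in the aerocyte values was not tested.

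Depth and mitochondrial share differed little between high and other cells. In donor general capillary cells the median depth was 5602 UMIs in high and 5342 in other cells, the mitochondrial share 2.82% and 3.04%, and leukocyte markers 0.0676 and 0.127 per 10000. In recipient general capillary cells these were 5778 and 5576 UMIs, 2.71% and 3.01%, and 0.289 and 0.159. Ptprc, which encodes CD45, had 0 UMIs in high cells of both libraries, and stood at 0.173 CPM in other donor and 0 in other recipient cells. The sort and the gate had both left leukocytes out, so low leukocyte values were set in advance.

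Genes outside the list were then read in the same high cells. Of the receptor and kinase genes, Tyk2 had 5 UMIs in high and 43 in other recipient cells (0.598, 0.185 to 1.51). The receptor chains Ifnar1 (69.0 and 69.6 CPM in donor cells) and Ifnar2 (323 and 311) did not differ by more than their intervals.

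Guanylate-binding proteins and immunity-related GTPases, classical targets of interferon gamma that attack vacuoles of intracellular pathogens, were higher in high general capillary cells for 12 of 15 genes in the donor and 11 of 14 in the recipient library. Iigp1 stood at 2007 CPM in high and 845 in other donor cells and at 1773 and 559 in recipient cells. Of the other interferon-stimulated genes, 20 of 38 in the donor and 19 of 33 in the recipient library were at least 1.5-fold higher, and 0 and 2 lower. Oasl1, a translational repressor of Irf7 in mice, was at 22.3 and 3.46 CPM in donor cells, and the chemokine Cxcl10 at 85.2 and 20.2 in donor and 98.8 and 38.0 in recipient cells. Of the nucleic acid sensing genes 4 of 10 in the donor and 4 of 9 in the recipient library were higher, including the DNA sensor Cgas (1.9 and 2.75) and the RNA-editing enzyme Adar (1.7 and 2.95). Of the brakes on signalling, 1 of 5 was higher in each library, Socs1 at 1.83 (1.59 to 2.1) in the donor and Ptpn11 at 1.84 (0.945 to 3.38) in the recipient library. In these general capillary cells 0 of 13 early response genes were at least 1.5-fold higher. In each library 1 was lower, Hspa1b at 0.504 in the donor and Hspa1a at 0.33 in the recipient library. Below that limit the list leaned higher, with a median log2 ratio of 0.13 in the donor and 0.26 in the recipient library. All other genes had medians of −0.0485 and −0.0648. The part of tissue digestion in the high cells was not tested.

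Members with and without the motif overlapped in how they followed the high general capillary cells. The 12 with a match had a median ratio of 2.7 (range 1.12 to 7.99) in the donor and 3.17 (1.34 to 16.4) in the recipient library. The 13 with a window and no match had 2.26 (1.32 to 3.84) and 2.62 (1.18 to 4.95). The 4 members with the highest ratios all held a match, and so did Bst2 and Ifitm3, which were at the low end. Among other lists, 9 of 10 GTPase genes with a window held the motif and 0 of 8 receptor and kinase genes did.

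Rare high cells outside the vessels differed in which members filled them. Of 23 donor alveolar type 1 cells deep enough to be thinned, 2 were high, 8.7% (1.07 to 28), and another 18 cells were too shallow. These 2 cells held 21 and 35 UMIs of Isg15, 50 and 19 of Ifit3 and 17 and 3 of Ifit1, with 352 and 302 UMIs of alveolar type 1 markers and 1 and 3 of endothelial markers. Of 3 high recipient alveolar type 1 cells, 2 held 17 UMIs of Ifit1 each and 16 and 55 of Ifit3, and the one with 55 carried a shared barcode. The other had 23 member UMIs among 17250, 13.3 per 10000 before thinning, and was thus high in the drawn UMIs alone, and it also carried a shared barcode. The 2 high recipient pericytes had 61 and 2 UMIs of Isg15 and 0 and 1 of endothelial markers, and the first of them carried a shared barcode.

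Among 10 high alveolar fibroblasts, 5 held 20 to 69 UMIs of Ifi27l2a and at most 2 of Isg15. Those with 59 and 69 carried a shared barcode. Another fibroblast had 16 of Isg15, 15 of Ifit3 and 0 of Ifi27l2a, and carried a shared barcode too. Both high lymphatic cells had mostly Ifi27l2a, 22 and 45 UMIs, and none of the 4 high adventitial fibroblasts had fewer than 27. The lymphatic cell with 45 and the adventitial fibroblasts with 36 and 30 carried a shared barcode. Ifi27l2a thus filled many of the high stromal and lymphatic cells, and the high alveolar type 1 cells held 0 or 1 UMI of it.

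The comparison of donor with recipient cells asks whether cells grown from the transplant carry the response differently from the host's cells of the same type. In general capillary cells the 32-member sum was 1.10 times as high in the donor library (interval 1.08 to 1.11), in aerocytes 1.15 times (1.13 to 1.17) and in venous cells 1.06 times (1.03 to 1.10). Without Ifitm3 and Bst2 the ratios were 1.13 (1.10 to 1.15), 1.14 (1.12 to 1.17) and 1.09 (1.03 to 1.15). The median log2 ratio of the members was 0.17, 0.23 and 0.20 in these types, where that of all genes with at least 20 UMIs was −0.016, −0.021 and 0.035. Log2 ratios above 0 were found for 23 of 32 members in general capillary cells, 24 of 32 in aerocytes and 21 of 30 in venous cells, with 9, 8 and 9 below. These small ratios hold for 1 library each, and how much separate animals or libraries differ is unknown.

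In general capillary cells, 2 of 32 members were at least 1.5-fold higher in the donor library and 2 at least 1.5-fold lower, where 7.62% and 10.4% of 12197 genes were, so the count itself does not set the members apart. Bst2 had 16437 UMIs (1128 CPM) in the donor and 1807 (708 CPM) in the recipient library, 1.59-fold higher (1.52 to 1.67), and its transcripts were spread over many cells, with 50% of its UMIs in 680 donor and 96 recipient cells. Zbp1, at 656 and 72 UMIs (45.0 and 28.2 CPM), was 1.60-fold higher (upper bound 2.07). In the other direction Ifi27l2a, at 308 and 127 UMIs, had a ratio of 0.425 (0.344 to 0.527), but 50% of its UMIs came from 21 donor and 9 recipient cells. Ifit2, at 94 and 27 UMIs, had a ratio of 0.610 (0.394 to 0.974). Apol9a, at a ratio of 1.49, lay just under the limit. Without high cells, which are chosen on the members, 4 members were higher, and the share of all genes in that setting is not reported here.

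In aerocytes, 5 of 32 members were at least 1.5-fold higher and 0 lower, where 4.12% and 7.96% of 11971 genes were. Apol9a stood at 99 UMIs (6.27 CPM) in the donor and 4 UMIs (0.763 CPM) in the recipient library, a ratio of 8.22 (3.11 to 30.8), and Zbp1 at 84 and 12 UMIs, 2.33 (1.26 to 4.68). Both were higher in general capillary cells than in aerocytes, and other genes of general capillary cells moved with them in aerocytes to unequal degrees. Cd74 was at 175 CPM in donor and 28.4 in recipient aerocytes, 5.53% and 1.44% of its level in general capillary cells, and Plvap at 183 and 41.8 CPM, 5.04% and 1.24%. Lpl was at 4.4% and 2.61% of its general capillary level and Gpihbp1 at 11% and 7.96%, a smaller shift. Plvap and Gpihbp1 were among the markers that gated general capillary cells, so the gate itself limits their level in aerocytes. Apol9a in aerocytes was at 7.53% and 1.36% of its general capillary level and Zbp1 at 11.8% and 8.12%, and the part of free RNA or mixed droplets in these ratios was not tested. The other 3 were Cmpk2, the nucleotide kinase beside Rsad2, at 19.3 and 11.6 CPM (a ratio of 1.66, upper bound 2.22), Dhx58 at 11.2 and 7.06 CPM (1.59, 1.11 to 2.33) and Ifit1 at 43.5 and 28.8 CPM (1.51, 1.27 to 1.81). Bst2, by contrast with general capillary cells, was at 435 and 429 CPM in aerocytes, a ratio of 1.01 (0.965 to 1.06), and the difference between the types was not tested. Without high cells, which are chosen on the members, 3 members were higher in donor aerocytes. The share of all genes in that setting is not reported here.

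In venous cells, 8 of 30 members were at least 1.5-fold higher and 2 lower, where 11.3% and 9.77% of 8267 genes were, and Ifit2 and Rsad2 had too few UMIs. Zbp1 had 54 donor and 10 recipient UMIs, a ratio of 4.28 (2.16 to 9.43), and Cmpk2 21 and 4, a ratio of 4.16 (1.4 to 16.7). Ifit3, at 166 and 54 UMIs, had a ratio of 2.44 (1.78 to 3.38), with 50% of its UMIs in 6 donor and 7 recipient cells and up to 30 in 1 donor cell. Apol9a (1.82, 1.14 to 2.98), Usp18 (1.66, 0.977 to 2.89), Ifit1 (1.63, 1.18 to 2.27), Rtp4 (1.63, 1.23 to 2.18) and Bst2 (1.61, 1.41 to 1.84) made up the rest. Irf7 (0.634, 0.397 to 1.01) and Stat2 (0.649, 0.444 to 0.944) were lower. Without high cells, which are chosen on the members, 5 venous members were higher and 1 lower. The share of all genes in that setting is not reported here.

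**Figure D5:**
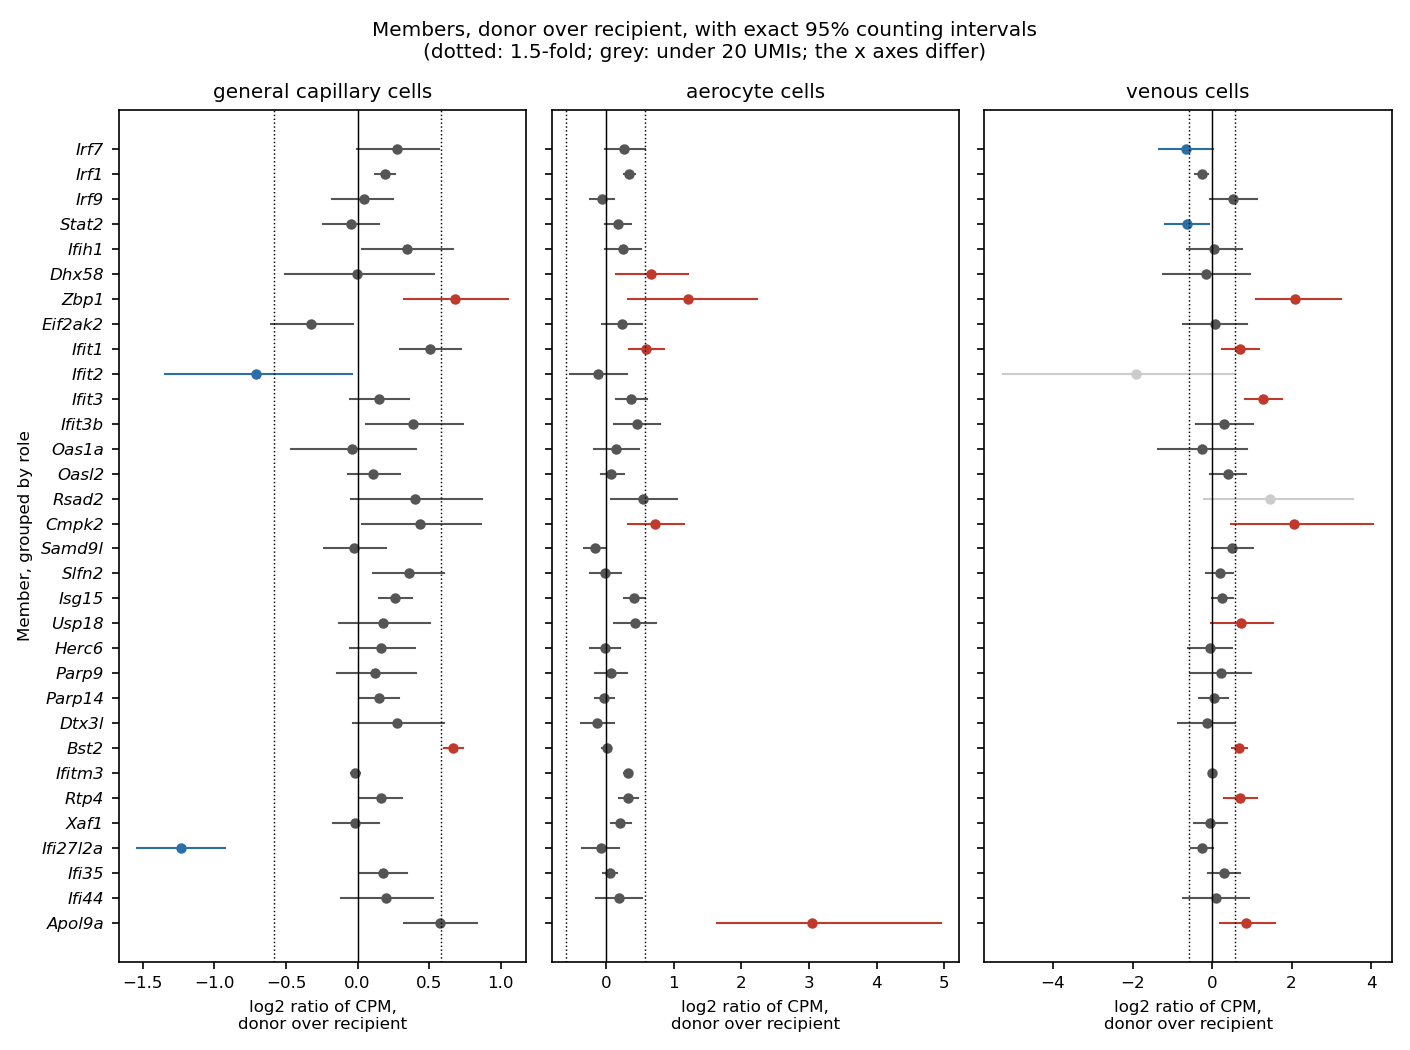
Log2 ratio of CPM, donor over recipient, for each member (y axis, grouped by role) in general capillary, aerocyte and venous cells, with exact 95% counting intervals, members at least 1.5-fold higher in red and lower in blue, and members with under 20 UMIs in grey. Most points lie within the dotted 1.5-fold lines, and Zbp1 is the member beyond them on the donor side in all 3 types.

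Interferon ligands, receptors and kinases were read next. Of 10 interferon ligand genes, 9 had 0 UMIs in donor cells and 8 in recipient cells, where 3 counts would be 0.0853 and 0.121 CPM. Ifnk (interferon kappa) was the exception, with 16 donor and 87 recipient UMIs, of which 35 were in recipient pericytes (12.8 CPM), and Ifng had 2 recipient UMIs. None of 9 receptor and kinase genes was at least 1.5-fold apart in general capillary cells or aerocytes, and 1, Ifngr2, was 1.70-fold higher (1.06 to 2.80) in donor venous cells. Ifnar2 was at 313 and 291 CPM in general capillary cells, 153 and 149 in aerocytes and 348 in recipient alveolar fibroblasts. Ifnlr1, the chain specific to interferon lambda, had 8 UMIs in donor alveolar type 1 cells (31.1 CPM) and 92 in recipient ones (34.0 CPM, 27.4 to 41.7), and 0 UMIs in general capillary and venous cells of both libraries. No other type with a level given here had more than 2 UMIs of it.

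Of the brakes on signalling, Socs3 was 1.55-fold higher (1.47 to 1.64) in donor aerocytes, at 474 and 306 CPM, and the other 4 were not 1.5-fold apart in any of the 3 types. The early response gene Atf3 was 1.58-fold higher there, at 579 and 367 CPM, and that list had a median log2 ratio of 0.34 in aerocytes, 0.02 in general capillary cells and −0.43 in venous cells. Of the sensing genes, Ddx58 (RIG-I) alone passed the limit, at 1.53 (1.03 to 2.30) in venous cells. The heat shock genes Hspa1b (0.572, 0.507 to 0.646) and Hspa1a (0.651, 0.596 to 0.712) were lower in donor general capillary cells.

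Of the other interferon-stimulated genes, 5 of 38 were 1.5-fold higher and 4 lower in general capillary cells. The counts were 4 and 2 of 35 in aerocytes and 5 and 2 of 29 in venous cells. Of all genes tested, 7.62% were higher and 10.4% lower in general capillary cells. These shares were 4.12% and 7.96% in aerocytes and 11.3% and 9.77% in venous cells. Several of these counts, as of the GTPase counts below, lie near such shares and do not set a list apart. Ifitm1, a relative of Ifitm3, was at 10.5 CPM in donor and 56.4 in recipient general capillary cells, at 8.24 and 85.1 in aerocytes and at 4.03 and 54.7 in venous cells. Ifitm3 itself was at 3901 and 3944, 762 and 609, and 4839 and 4829 CPM in the same types. In venous cells Cxcl10 was at 68.5 and 312 CPM, a ratio of 0.220 (0.166 to 0.289), while Znfx1 (1.68, 1.03 to 2.82) and Rnf213 (1.59, 1.09 to 2.34) were higher. GTPase genes were higher for 3 and lower for 2 of 15 in general capillary cells, with Gbp6 at 57.8 and 27.4 CPM and Gbp3 at 72.3 and 44.3, against Gbp8 at 19.7 and 64.6 and Gbp9 at 78.7 and 128. In aerocytes 5 of 15 were higher and 0 lower, Iigp1 being at 70.5 and 29 CPM. Venous cells had 1 of 14 higher, Gbp6 with 53 and 13 UMIs (3.23, 1.74 to 6.46), and 2 lower, Gbp5 (0.544, 0.382 to 0.772) and Irgm2 (0.637, 0.428 to 0.943).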

How the data were processed

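The authors deposited UMI counts per gene and cell barcode as filtered matrices, made with Cell Ranger on mm10. The submitters' processing notes give version 4.0.0 and the labels' protocol gives 3.0.1. Symbols and barcodes, of unit other, were read from the deposited feature and barcode lists. The members and gene lists, and the thresholds, were chosen with earlier results of these data known. Barcodes over 3 scaled median absolute deviations from their library's median in genes (691 to 7888 kept in the donor, 802 to 7423 in the recipient library), UMIs (36143 and 31040) or mitochondrial share (6.68% and 7.35%) were left out. No doublet caller was run. A cell's lineage needed at least 3 marker UMIs and 3 times those of the next lineage, which left out 43 donor and 74 recipient cells as mixed or low, and its subtype a clear lead of its scaled marker score. Leukocyte (12 and 11), blood (16 and 7) and unresolved (271 and 163) cells were left out.

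Counts were summed per type and library. Levels carry exact Poisson, ratios exact conditional and shares exact binomial (Clopper-Pearson) 95% intervals. UMIs count molecules, and the intervals leave out variation between animals, libraries and sorts. Ratios used genes with at least 20 UMIs in both libraries together, a group at 0 being set to 3 counts, and a gene was called 1.5-fold apart by its ratio. Named genes were members past 1.5-fold, the 5 highest members of a type and, from the other lists, up to 5 genes past 1.5-fold with at least 50 CPM; pathway genes in high cells were chosen after their values were seen. Mx1, Mx2 and Oas1b were not analysed here, and some pathway results are not reported here. Computation used Python 3.11.15, numpy 2.4.6, scipy 1.17.1 and pandas 2.3.3, checked on simulated counts. Alternatives covered shared barcodes, the cell filter, the gate, the scaling, the UMI minimum, the thinning and the members in the sum.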

Additional observations from a re-analysis of the deposited data

Results flagged for a closer look

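Donor alveolar type 1 cells were outside every comparison, since 41 cells, of a median of 2317 UMIs, passed the gate, yet pooled levels of some members were above those of the recipient library. The median cell was not: it held 7.35 UMIs of the 30 members per 10000 in donor and 8.47 in recipient alveolar type 1 cells. High cells were 8.7% of those deep enough, against 1.7% (0.353 to 4.9) of recipient alveolar type 1 cells, with overlapping intervals. Ifit3 stood at 506 CPM (422 to 600) in the donor and 213 CPM (196 to 231) in the recipient cells, and Isg15 at 366 CPM (295 to 447) and 63.2 CPM (54.1 to 73.4). The 2 high donor cells held 53.1% of the Ifit3 and 59.6% of the Isg15 UMIs of the donor type. Without high cells the 30-member sum was 13.5 UMIs per 10000 in donor and 9.06 in recipient alveolar type 1 cells. A barcode found in both libraries was carried by 3 of the 41 donor cells, neither of the 2 high ones among them. The median depth of the recipient cells was 14701 UMIs, and its part in these values was not tested.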

How the results depend on the processing

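No paired analysis was possible because each group is 1 library. For the same reason no replicate could be left out, and the limits of these values are counting error, the gate and the shared barcodes. Over the alternatives run, no direction of the summed ratios reversed: donor over recipient stayed between 1.07 and 1.13 in general capillary cells, 1.12 and 1.16 in aerocytes and 1.04 and 1.19 in venous cells. The lowest of these in general capillary cells, 1.07, came with both copies of shared barcodes left out, where the recipient sum was 77.7 UMIs per 10000. Values below moved by more than their interval, or a count by over 1.5 times, and the cause was not tested unless the setting itself gives it.

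With no cell filter the sum was 82.1 in donor general capillary and 83.4 in donor venous cells. Without Ifitm3 and Bst2 it was 32.4, 18.1 and 31 in donor general capillary, aerocyte and venous cells and 28.8, 15.8 and 28.4 in recipient ones, with a ratio of 1.13 in general capillary cells. Without Irf1 as well, a setting chosen after seeing the data, it was 24.1, 14.7 and 24.3 in donor and 21.5, 13.1 and 20.3 in recipient cells, with ratios of 1.12, 1.12 and 1.19. Without high cells it was 72, 27.9 and 78.2 in donor and 65.5, 24.5 and 71.9 in recipient cells.

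Members at least 1.5-fold higher were 4 in general capillary cells, 3 in aerocytes and 5 in venous cells without high cells, and 1 venous member was lower. High cells are chosen on the members, and the share of all genes past 1.5-fold without these cells is not reported here. No reading of these counts is therefore made. With at least 100 UMIs 4 venous members were higher and 1 lower. Under the stricter gate 1 member was lower in general capillary cells.

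The share of high cells depended on its limit and on the members summed. At 30 per 10000 it was 45.2%, 17% and 45.8% in donor and 37.6%, 14% and 44.6% in recipient general capillary, aerocyte and venous cells. At 100 per 10000 it was 2.83%, 0.241% and 2.8% in donor and 2.64%, 0.152% and 0% in recipient cells. With all 32 members it was 84.8%, 14.2% and 84.1% in donor and 79.4%, 11% and 83.7% in recipient cells. Without Irf1 in the sum, again chosen after seeing the data, it was 10.6% and 3.01% in donor general capillary cells and aerocytes, and 9.83% and 8.7% in recipient general capillary and venous cells. Thinned to 1000 UMIs it was 23.6% and 8.21% in donor and 20.7% and 5.13% in recipient general capillary cells and aerocytes, and thinned to 4000 UMIs 17.7% in donor general capillary cells. Not thinned it was 15.4% and 2.74% in donor general capillary cells and aerocytes. Of the other values of these kinds, 154 moved less.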
